A study of Mus musculus with 800 samples.

Results

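The cells described here are retinal ganglion cells (RGCs) of the embryonic mouse retina that carried transcripts of either Slc6a4 or Isl2 but not of both. They made up 15.75% of 800 single cells: 89 with at least 5 counts of Slc6a4 and 0 of Isl2, called the Slc6a4 side, and 37 with at least 5 counts of Isl2 and 0 of Slc6a4, called the Isl2 side. Both were taken from the 46.75% of cells, called Pou4f cells here, that had 5 or more counts of Pou4f1 or Pou4f2, transcription factors of RGCs, and fewer than 20 counts each of Fgf15 and Hes1, genes of retinal progenitors. Cells with under 1000 genes or over 20% mitochondrial counts had been left out before, which kept 689 cells. The members were thus chosen by their counts of Slc6a4, Isl2, Pou4f1, Pou4f2, Fgf15 and Hes1, and the levels of these genes are descriptions and not findings.

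Every cell came from dissociated and pooled retinas of Sert-Cre embryos of the C57BL/6 strain at stage E15.5 and was sorted and labelled Tomato+ (400 cells) or Tomato- (400 cells). The genotype entry of the labels reads Tomato+ or Tomato-, and no group is labelled as lacking Cre. Sert-Cre places Cre recombinase under the control of Slc6a4, so the Tomato label follows past or present activity of 1 of the genes used to choose the cells. The labels name neither the reporter allele nor the sort gate, and no label ties a cell to an animal or litter, so each label is 1 pool. No p-value, standard error or test is therefore given, and every interval is an exact 95% interval that covers counting error only.

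Slc6a4 encodes the serotonin transporter, which takes up serotonin from the extracellular space. RGCs that send their axon to the same side of the brain express it before birth, although they make no serotonin of their own, and they turn away from the midline through the receptor Ephb1 under the control of the transcription factor Zic2. Isl2, a LIM homeodomain factor, is known from RGCs whose axon crosses the midline, where mouse studies place it upstream of a repression of Zic2 and Ephb1. Pou4f1 and Pou4f2 are POU domain factors of RGC differentiation and survival.

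Regions next to a start of the genes that define the sides are shown because all other comparisons hang on the activity of these genes. Both are 250 bases long, end at the base before the start that the RefSeq promoter table gives (GRCm38.p6), lie on the plus strand and are printed 5′ to 3′. Capitals mark TGACG or its reverse complement CGTCA, the core of the cAMP response element, looked for on both strands after the sequences had been seen. The region of Slc6a4 is chr11:76998347-76998596 and that of Isl2 chr9:55540899-55541148.
Slc6a4: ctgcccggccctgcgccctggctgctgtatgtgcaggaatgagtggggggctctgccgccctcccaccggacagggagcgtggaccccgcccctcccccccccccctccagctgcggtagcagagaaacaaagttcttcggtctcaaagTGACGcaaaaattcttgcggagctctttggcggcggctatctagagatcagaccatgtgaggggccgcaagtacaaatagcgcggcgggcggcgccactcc
Isl2: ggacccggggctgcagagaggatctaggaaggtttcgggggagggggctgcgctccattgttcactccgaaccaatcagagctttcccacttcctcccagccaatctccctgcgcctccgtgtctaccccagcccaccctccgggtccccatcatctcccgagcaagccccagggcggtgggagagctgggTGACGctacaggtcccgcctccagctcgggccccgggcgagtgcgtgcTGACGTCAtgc

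The Slc6a4 region held 1 match and the Isl2 region 3, of which the last 2 overlap as the palindrome TGACGTCA close to the end of the window. At least 1 match was found in 17.8% of 32851 RefSeq windows of the same length. TAATTA, a core bound by many homeodomain proteins, was found 0 times in either region and in 4.84% of the windows. The G and C share was 64.8% in the Slc6a4 and 66.8% in the Isl2 region. Matches are descriptions of the letters only. In the RefSeq gene records of the same build, from which all spans are taken, the gene Slc6a4 spans chr11:76998597-77032343, so its window lies just upstream. Isl2 spans chr9:55538677-55547667, so its window begins 2222 bases inside the gene's full span and is not upstream of all of its transcripts.

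The sides differed in label. Of the Slc6a4 cells, 88 of 89 were Tomato+, or 98.9% (93.9 to 99.97). Of the Isl2 cells, 16 of 37 were Tomato+, or 43.2% (27.1 to 60.5), and 21 were Tomato-. Over all Pou4f cells 70.3% were Tomato+, and the Slc6a4 side lay above and the Isl2 side below that share. The label follows Slc6a4 and the Isl2 side had to have 0 Slc6a4 counts, so this order is in part built in. Of the Pou4f cells with 0 counts of both genes, 55.8% (48.1 to 63.4) were Tomato+, within the interval of the Isl2 side. Of all Pou4f cells with at least 5 Isl2 counts, 29 of 51 were Tomato+. Among Tomato+ Pou4f cells, 33.5% (27.8 to 39.5) were on the Slc6a4 side and 6.08% (3.52 to 9.69) on the Isl2 side. Among Tomato- Pou4f cells, the shares were 0.901% (0.0228 to 4.92) and 18.9% (12.1 to 27.5). The lone Tomato- cell of the Slc6a4 side had 18 Slc6a4 counts at a total of 241369 counts, and 0 counts of Crabp1, Ephb1, Ubash3b and Eomes.

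The title of each cell holds a title number whose meaning is not given; 1 to 10 belong to Tomato+ and 11 to 20 to Tomato- cells. The title also holds a row number from 1 to 40, likewise unexplained, and each row number has 10 Tomato+ and 10 Tomato- cells; 19 row numbers held cells of both sides. Slc6a4 cells numbered 7 to 12 in each of the 10 Tomato+ title numbers. Isl2 cells were found in 6 Tomato+ title numbers, with 1 to 4 cells each, and in 8 Tomato- title numbers, with 1 to 5 cells each. Cells of title numbers 8 and 10 had median totals of 148632.5 and 127257 counts, below the 185334 to 362038 of the other title numbers, and together they held 17 Slc6a4 cells and 1 Isl2 cell.

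Within the sides, Slc6a4 had at least 5 and a median of 49 counts per cell (12.8 to 1121 CPM, a cell's counts scaled to a common total), and Isl2 at least 5 and a median of 73 (14.6 to 752.3 CPM). Near the threshold lay 8 Slc6a4 cells and 2 Isl2 cells with 5 to 9 counts. Just outside it were 42 Pou4f cells with 1 to 4 Slc6a4 counts and 32 with 1 to 4 Isl2 counts, both with a median of 1. Isl2 had a median of 93 counts in Tomato+ and 66 in Tomato- cells of the Isl2 side, and the ranges overlapped.

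How far the genes overlapped depended on the threshold. At least 5 counts of both were found in 9 Pou4f cells, which were 8.41% of the cells with at least 5 Slc6a4 counts and 17.6% of the 51 with at least 5 Isl2 counts. All 9 were Tomato+. With at least 20 counts as the threshold, 3 cells had both, or 3.45% of 87 Slc6a4 cells and 7.50% of 40 Isl2 cells. A larger set of Pou4f cells, 96 Tomato+ and 76 Tomato-, had 0 counts of both genes, and its values are given beside those of the sides. The remaining 67 Pou4f cells had low counts of 1 of the genes or of both.

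**Figure D1:**
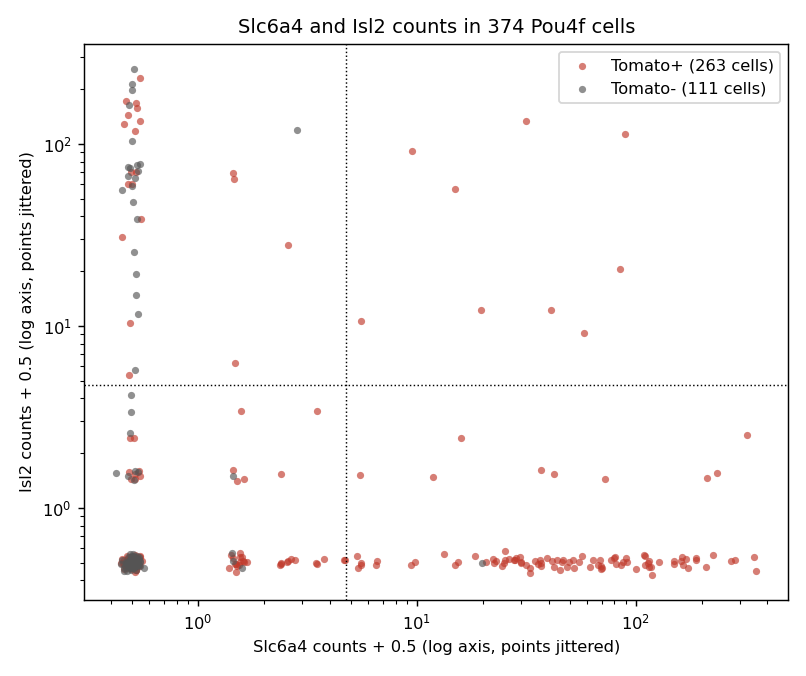
Slc6a4 counts (horizontal) and Isl2 counts (vertical) in the Pou4f cells, both on log axes after adding 0.5, with 1 point per cell, jittered; red points are Tomato+ and grey points Tomato- cells, and dotted lines mark the threshold of 5 counts. The 89 Slc6a4 cells lie along the bottom edge right of the line and are red but for 1 cell, the 37 Isl2 cells lie along the left edge above the line in both colours, and 9 red cells lie beyond both lines.

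Both sides carried the general RGC markers at like levels, given as CPM, for a side the summed counts of its cells scaled to their summed total. Sncg, a synuclein of RGCs, had at least 5 counts in every cell of both sides. It ran from 521 to 11952 CPM with a median of 5963 in Slc6a4 cells and from 47.6 to 12417 CPM with a median of 7313 in Isl2 cells, so the ranges overlapped. Under 1000 CPM of Sncg were 3 of 89 Slc6a4 cells and 4 of 37 Isl2 cells. Isl1, the paralog of Isl2, had 868.5 CPM (98.9% of cells with at least 5 counts) on the Slc6a4 side and 1045 CPM (97.3%) on the Isl2 side. Thy1, a surface marker of mature RGCs, was near 0, at 1.52 and 12.5 CPM.

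Of the genes that reached 5 counts in 20% or more of the cells of a side, most lay within 2-fold. Among them, 4.18% were at least 2-fold higher in Slc6a4 cells and 3.29% lower. Of 16 general RGC markers, 13 reached that limit, and 12 of these lay within 2-fold, near the share over all genes. The exception was Slc17a6, the vesicular glutamate transporter of RGCs, at 96.2 CPM on the Slc6a4 side and 230.7 CPM on the Isl2 side. Its log2 ratio, Slc6a4 side over Isl2 side with a pseudocount of 10 CPM added to both as in all ratios below, was -1.18. It was -0.49 without the cells that carry progenitor or amacrine genes described further below.

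The factors of the gate divided unevenly. Pou4f1 was at 113.1 CPM on the Slc6a4 side and 405.6 CPM on the Isl2 side. At least 5 Pou4f1 counts were found in 52 of 89 Slc6a4 cells and 36 of 37 Isl2 cells. Pou4f2 ran the other way, at 162.9 CPM (75 of 89 cells) on the Slc6a4 side and 77.6 CPM (21 of 37 cells) on the Isl2 side. The cells with neither gene were at 154.5 CPM for Pou4f1 and 164.7 CPM for Pou4f2. A cell had to have one of these factors to be chosen, so low Pou4f1 forces Pou4f2 to be present, and their opposite order is in part built in.

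Median depth was similar on both sides but differed by label within the Isl2 side. Totals ran from 100894 to 644293 counts with a median of 294527 in Slc6a4 cells and from 91405 to 597381 with a median of 320242 in Isl2 cells. Median numbers of genes were 4627 and 4723, and median mitochondrial shares 5.54% and 4.88%. Within the Isl2 side, the median total was 297924.5 counts in the 16 Tomato+ and 390429 in the 21 Tomato- cells. Over 10% mitochondrial counts were found in 1 of these 16 and 6 of these 21 cells. Shares of cells with at least 5 counts were not matched for depth between the labels. The summed counts behind the CPM were 26914611 on the Slc6a4 side and 12520675 on the Isl2 side, so single cells weigh more in the Isl2 values. The 8 erythroid markers summed to 3329 CPM on the Slc6a4 side and 11.7 CPM on the Isl2 side, and no member reached 20% of the cells of a side. Single cells weigh heavily in the higher sum. Per cell, these markers summed to a median of 3.30 CPM and a maximum of 223770 CPM in Slc6a4 cells. The median was 4.05 CPM in Tomato+ and 0 CPM in Tomato- Isl2 cells. At least 5 counts of the globin gene Hbb-y were found in 8 of 89 Slc6a4 cells and 3 of 37 Isl2 cells, and 2 Slc6a4 cells had at least 100. Microglia and vessel markers summed to 5.94 and 1.60 CPM.

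Over all genes, most did not differ by 2-fold. Considered were 6484 genes that reached 5 counts in 20% or more of the cells of either side, called widely measured. Of these, 4.18% were at least 2-fold higher in Slc6a4 cells (log2 ratio of 1 or more) and 3.29% at least 2-fold lower. These shares include Slc6a4 among the higher and Isl2 and Pou4f1 among the lower genes. The median log2 ratio over all of them was -0.01. A gene could reach the limit on the share of cells through 1 side alone, where it is high, as many list members named below did. The counts of list members past 2-fold are therefore descriptions, and nothing is read from them against these shares. When only the 88 and 16 Tomato+ cells were compared, 74.9% of the higher genes were past 2-fold there and 100% kept their sign. Of the lower genes, 59.6% were past 2-fold there and 91.5% kept their sign. That comparison has 16 Isl2 cells and calls 10.4% of genes higher and 5.75% lower. It reuses 88 of the 89 Slc6a4 cells and 16 of the 37 Isl2 cells, so these shares are in part built in and are no second comparison.

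Ephb1, Zic5 and Zic1, genes tied to the uncrossed projection, were past 2-fold higher on the Slc6a4 side, while Zic2, Boc and Cd9, also tied to it, were near 0 on both sides. Of 8 ipsilateral genes other than Slc6a4, 4 were widely measured, 3 of them (Ephb1, Zic5 and Zic1) through the Slc6a4 side alone, and 4 were not. The widely measured 4, these 3 and Igf1, were past 2-fold higher, where 4.18% of all genes were. The median log2 ratio over all 8 members was 0.74. Of 10 contralateral genes other than Isl2 and the Pou4f factors, 6 were measured that widely and 0 were past 2-fold either way, with a median over all 10 of -0.02. Of all genes, 4.18% were past 2-fold higher and 3.29% lower, so 0 of 6 is near these shares and nothing is read from it.

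Ephb1, the receptor for ephrin-B2 on the midline glia, ran from 0 to 1473 CPM with a median of 151.5 in Slc6a4 cells. In Isl2 cells it ran from 0 to 189.5 CPM with a median of 0. The upper quartile of Isl2 cells was 0 CPM while the lower quartile of Slc6a4 cells was 33.1 CPM, so the sides overlapped only in their tails. Summed over cells, Ephb1 was at 250.5 CPM (244.6 to 256.5) on the Slc6a4 side and 5.91 CPM (4.64 to 7.42) on the Isl2 side, a log2 ratio of 4.03. At least 5 counts were found in 70 of 89 Slc6a4 cells (78.7%) and 3 of 37 Isl2 cells (8.11%). Those 3 Isl2 cells were all Tomato+, and 1 of them held 54.1% of the counts. Within Tomato+ cells the log2 ratio was 3.39.

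The Zic genes encode zinc finger factors, and Zic5 lies next to Zic2 on chromosome 14 (Zic5 chr14:122459160-122465658, Zic2 chr14:122475384-122480328). Zic5 ran from 0 to 1083 CPM with a median of 19.9 in Slc6a4 cells and from 0 to 148.9 CPM with a median of 0 in Isl2 cells. It was at 124.1 CPM (120 to 128.4) on the Slc6a4 side and 15.7 CPM (13.6 to 18.1) on the Isl2 side, a log2 ratio of 2.38. At least 5 counts were found in 48 of 89 Slc6a4 cells and 6 of 37 Isl2 cells, and the log2 ratio within Tomato+ cells was 2.72. Zic1 was at 31.02 CPM (24 of 89 cells) on the Slc6a4 side and 4.95 CPM (3 of 37 cells) on the Isl2 side, a log2 ratio of 1.46. Zic2 itself was low on both sides, at 3.72 and 0.96 CPM, with at least 5 counts in 4 of 89 Slc6a4 cells and 2 of 37 Isl2 cells.

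Igf1, a growth factor gene, divided the sides less. It ran from 0 to 4235 CPM with a median of 3.73 in Slc6a4 cells and from 0 to 485 CPM with a median of 2.55 in Isl2 cells, and the ranges overlapped widely. The sums were 156.9 and 67.7 CPM (log2 ratio 1.10), with at least 5 counts in 28 of 89 Slc6a4 cells and 9 of 37 Isl2 cells. The log2 ratio was 0.58 within Tomato+ cells, 0.45 with side thresholds of 1 count, 0.59 with a mitochondrial limit of 10%, 0.55 without title number 9 and between 0.93 and 1.00 without title number 3, 12 or 17. The cells with neither gene were higher than both sides at 258.5 CPM. Boc was near 0, at 0.07 CPM on the Slc6a4 side and 0 CPM on the Isl2 side, as was Cd9, at 1.00 and 0 CPM.

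In the contralateral list, Nrp1, a receptor for VEGF and semaphorin that acts in crossing, was at 262.9 CPM on the Slc6a4 side and 175.1 CPM on the Isl2 side (log2 ratio 0.56). Nrcam, an adhesion molecule of crossing axons, was at 214.01 and 218.4 CPM (-0.03). Plxna1, its partner receptor, was at 27.98 and 12.1 CPM (0.78). Igfbp5, which binds insulin-like growth factors, was at 38.6 CPM on the Slc6a4 side and 67.7 CPM on the Isl2 side (-0.68), and Pou3f1, a POU domain factor, at 18.8 and 41.4 CPM (-0.83). The corepressor gene Tle4 was at 234.5 and 197.3 CPM (0.24). The other 4 members, Ptch1, Shh, Flt1 and Kdr, were under 20% of cells on both sides, with log2 ratios from -0.97 to 0.51.

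**Figure D2:**
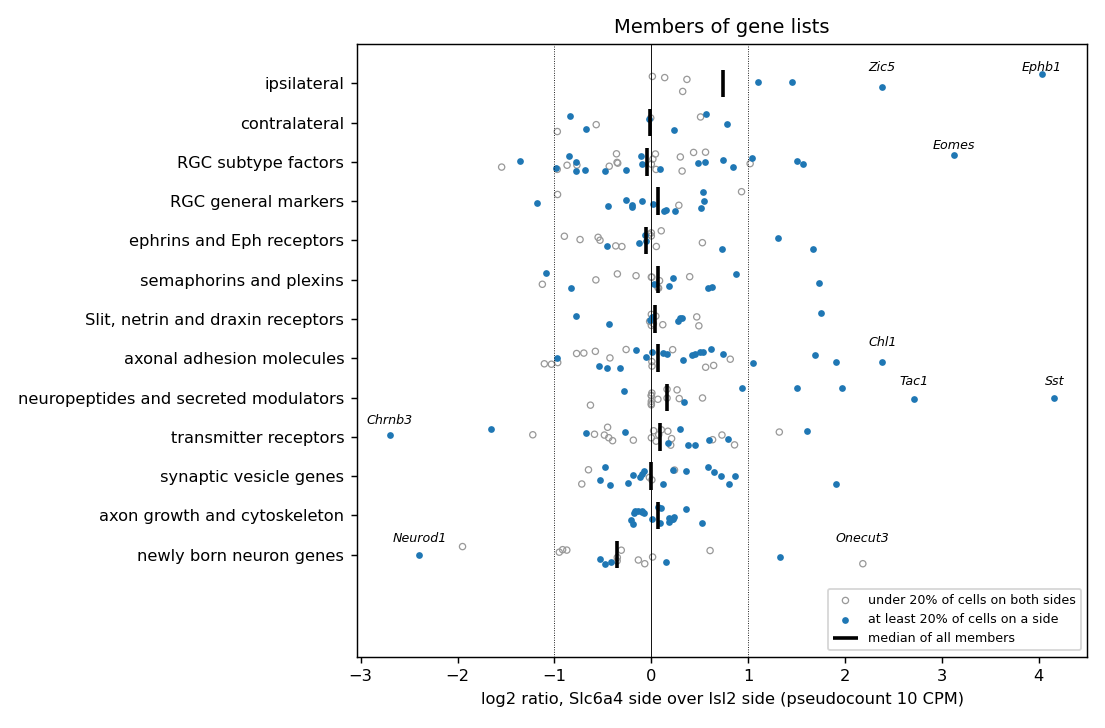
Log2 ratio of each member of 13 gene lists, Slc6a4 side over Isl2 side with a pseudocount of 10 CPM; filled points are widely measured genes, open points those below it, black bars the median of all members, and dotted lines the 2-fold limits. Ephb1 (4.03), Sst (4.16) and Eomes (3.13) lie farthest to the right and Chrnb3 (-2.70) farthest to the left, while the medians of the other lists plotted, the ipsilateral (0.74) aside, lie between -0.35 and 0.16.

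Of the genes ranked, the largest ratio was that of Crabp1, which encodes a cytosolic protein that binds retinoic acid. It ran from 0 to 29554 CPM with a median of 496.4 in Slc6a4 cells and from 0 to 1430 CPM with a median of 6.22 in Isl2 cells. The lower quartile of Slc6a4 cells, at 38.7 CPM, lay above the upper quartile of Isl2 cells, at 12.6 CPM, though both sides held cells at 0. The sums were 2475 CPM (2457 to 2494) on the Slc6a4 side and 79.1 CPM (74.2 to 84.2) on the Isl2 side, a log2 ratio of 4.80 (5.6 without title number 5). At least 5 counts were found in 74 of 89 Slc6a4 cells (83.1%) and 8 of 37 Isl2 cells (21.6%), of which 3 were Tomato+ and 5 Tomato-. The 9 cells with both Slc6a4 and Isl2 were at 850.2 CPM, and the cells with neither at 672.2 CPM. Crabp1 lies on the chromosome of Isl2, at chr9:54764748-54773110.

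Ubash3b, which encodes a phosphatase that curbs tyrosine kinase signalling, ran from 0 to 2319 CPM with a median of 278.6 in Slc6a4 cells and from 0 to 778.3 CPM with a median of 0 in Isl2 cells. Its sums were 387.9 and 40.5 CPM (log2 ratio 2.98), with at least 5 counts in 69 of 89 Slc6a4 cells and 10 of 37 Isl2 cells. Vldlr, a receptor for reelin, was at 263.1 and 52.3 CPM (2.13, and 2.77 without title number 12), in 65 of 89 and 8 of 37 cells. Kitl, the ligand of the receptor Kit, was at 157.8 and 28.4 CPM (2.13), and Rprm, known from cell cycle arrest, at 81.2 and 5.27 CPM (2.58). These genes marked most Slc6a4 cells, from 65.2% for Kitl to 77.5% for Ubash3b, as Crabp1 and Ephb1 did. With side thresholds of 1 count, Kitl was at 0.87.

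A second kind among the 15 highest genes marked a minority of Slc6a4 cells. Sst, the gene of the peptide somatostatin, ran from 0 to 3094 CPM with a median of 2.91 in Slc6a4 cells and from 0 to 44.2 CPM with a median of 0 in Isl2 cells. It had at least 5 counts in 33 of 89 Slc6a4 cells and 2 of 37 Isl2 cells, and the sums were 204.3 and 2.00 CPM (log2 ratio 4.16). Tac1, the gene of substance P, was at 99.7 CPM (39 of 89 cells) on the Slc6a4 side and 6.71 CPM (3 of 37 cells) on the Isl2 side, a log2 ratio of 2.72. Eomes, a T-box factor known from melanopsin cells among others, was at 96.9 CPM (30 of 89 cells) and 2.24 CPM (1 of 37 cells), a log2 ratio of 3.13. Eomes was higher still, at 189.6 CPM, in the cells with neither gene, where 30.2% of cells had at least 5 counts. With side thresholds of 1 count, the log2 ratio was 1.53 for Sst and 1.01 for Eomes, while that of Tac1 was 2.54 or more in every setting.

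The other genes of the 15 highest were Gsg1l, an auxiliary subunit of AMPA receptors (log2 ratio 2.45), Serping1, the inhibitor of complement C1 (2.40), Chl1, an adhesion molecule of the L1 family (2.39, and 3.26 without title number 19), Lrfn5, a synaptic adhesion molecule (2.31), and Mapk12, a p38 kinase (2.17, and 2.86 without title number 9). With side thresholds of 1 count, Serping1 was at 0.51 and Mapk12 at 0.73, within 2-fold. Gsg1l and Serping1 had at least 5 counts in 0 of 37 Isl2 cells, which allows a share of up to 9.49%. All 15 were past 2-fold within Tomato+ cells and also against the Tomato- Isl2 cells alone, a comparison in which 6.94% of genes are higher and 5.55% lower. In each of the 6 Tomato+ title numbers that held both sides, 12 of the 15 were higher in Slc6a4 cells. The other 3, Eomes, Gsg1l and Mapk12, were higher in 5 of the 6. All of these comparisons reuse cells by which the 15 were ranked. Their outcome was thus in part set beforehand, and they are descriptions and no further support.

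Set beside the cells with neither gene, the 15 highest genes divided again. For Crabp1, Ephb1, Sst, Tac1 and Zic5 the cells with neither gene lay between the sides. Zic5 had 22.4 CPM there, near the 15.7 CPM of Isl2 cells and below the 124.1 CPM of Slc6a4 cells. Chl1 (167.3 CPM), Lrfn5 (89.6 CPM) and Eomes were as high or higher in the cells with neither gene as in Slc6a4 cells, at 149.1, 84.04 and 96.9 CPM, and of these 3 sets were lowest on the Isl2 side. Kitl (138.5 CPM) and Rprm (69.4 CPM) also lay near the Slc6a4 side in the cells with neither gene. This set of 96 Tomato+ and 76 Tomato- cells was mixed. Of its cells, 58 had at least 5 counts of Top2a, Mki67, Ccnd1 or Tfap2b, genes of dividing cells or amacrine and horizontal precursors. Such counts were found in 10 of 89 Slc6a4 cells and 17 of 37 Isl2 cells. Under 1000 CPM of Sncg were 40 cells of this set, 3 of 89 Slc6a4 cells and 4 of 37 Isl2 cells. Whether its levels hold without such cells was not tested.

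**Figure D3:**
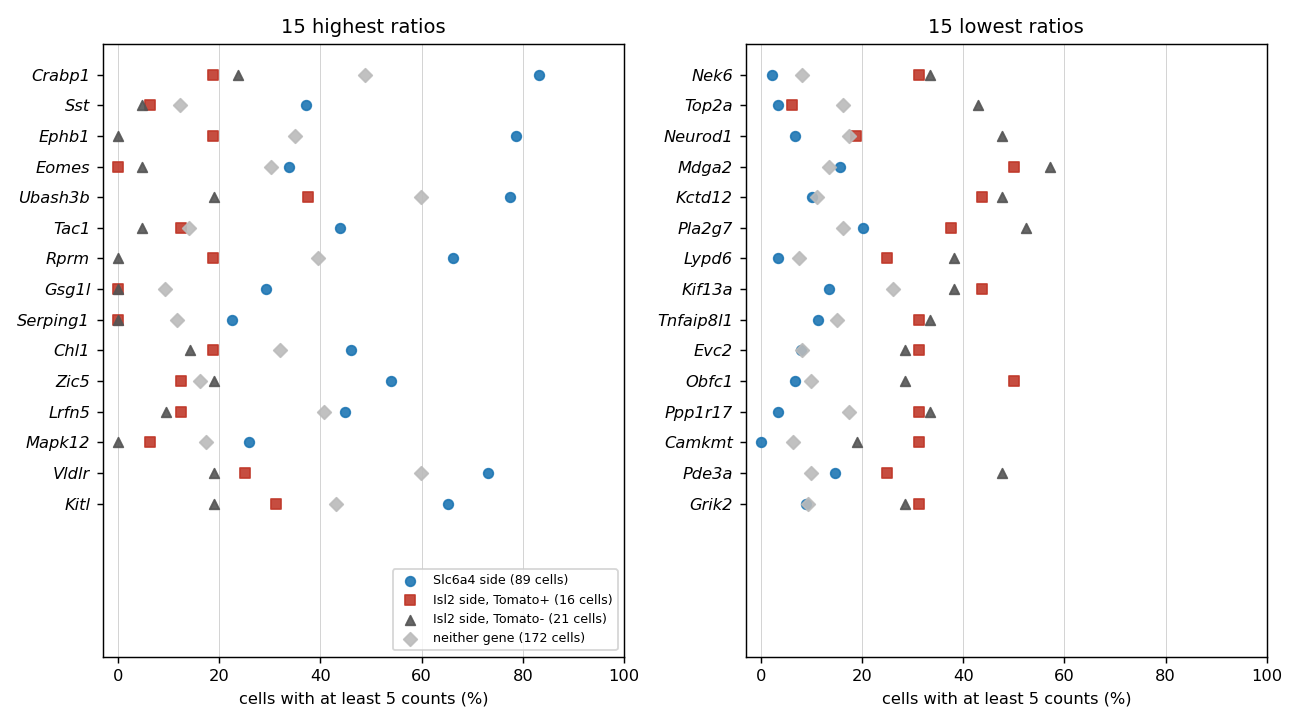
Percent of cells with at least 5 counts of the 15 genes with the highest (left) and the 15 with the lowest (right) log2 ratios by the naming rule; blue circles are Slc6a4 cells, red squares Tomato+ and dark triangles Tomato- Isl2 cells, and light diamonds Pou4f cells with neither gene. On the left Crabp1 reached 83.1% and Ephb1 78.7% of Slc6a4 cells, and on the right the Slc6a4 cells were at or below 20.2% for every gene.

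**Figure D4:**
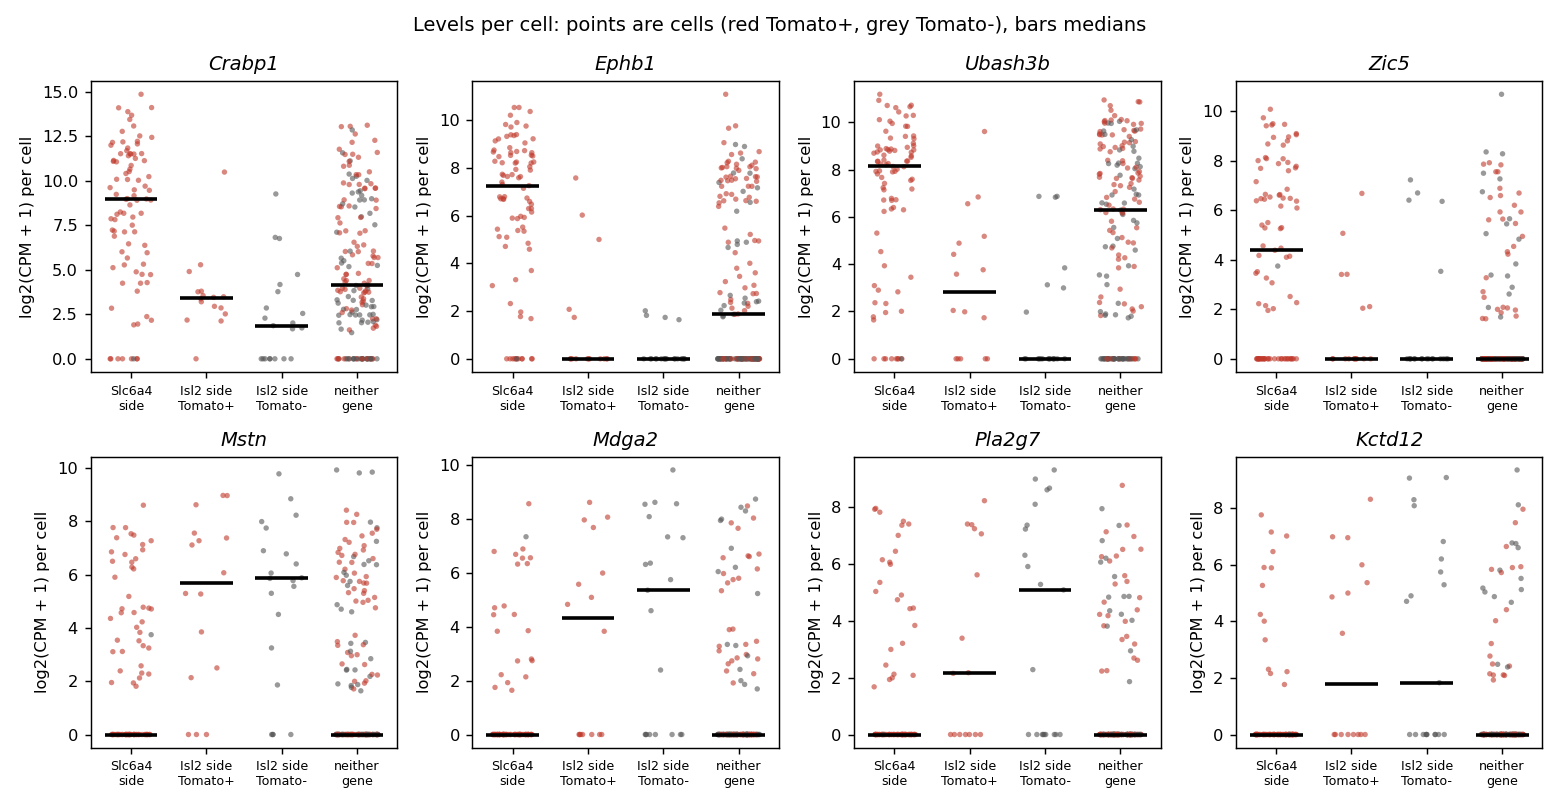
Level per cell as log2(CPM + 1) for 4 genes higher (top) and 4 genes lower (bottom) on the Slc6a4 side, with 1 point per cell (red Tomato+, grey Tomato-) and bars at medians. Crabp1, Ephb1, Ubash3b and Zic5 have their medians above 0 in Slc6a4 cells, and Mstn, Mdga2, Pla2g7 and Kctd12 have medians of 0 there while cells of both labels on the Isl2 side reach high values.

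Genes lower on the Slc6a4 side marked smaller parts of the Isl2 side. Mdga2, a membrane protein that holds back synapse formation through neuroligins, ran from 0 to 379.5 CPM with a median of 0 in Slc6a4 cells and from 0 to 906.5 CPM with a median of 27.5 in Isl2 cells. Its sums were 16.98 and 107.02 CPM (log2 ratio -2.12), with at least 5 counts in 14 of 89 Slc6a4 cells and 20 of 37 Isl2 cells, 8 of them Tomato+ and 12 Tomato-. No other gene of the 15 lowest was found in a larger share of Isl2 cells.

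Kctd12, an auxiliary subunit of GABA-B receptors, was at 7.99 CPM (9 of 89 cells) on the Slc6a4 side and 67.01 CPM (17 of 37 cells) on the Isl2 side, a log2 ratio of -2.10. Pla2g7, a secreted phospholipase that breaks down platelet-activating factor, was at 20.4 and 115.6 CPM (-2.04), in 18 of 89 and 17 of 37 cells. Grik2, a kainate receptor subunit, was at 11.7 and 58.3 CPM (-1.65). Lypd6 (-2.03), a modulator of nicotinic receptors, and Nek6 (-2.68), a kinase of mitosis, had at least 5 counts in 3 and 2 of the 89 Slc6a4 cells and in 12 Isl2 cells each.

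The remaining genes of the 15 lowest were Neurod1, Top2a, Kif13a, Tnfaip8l1, Evc2, Obfc1, Ppp1r17, Camkmt and Pde3a, with log2 ratios from -1.74 for Pde3a to -2.47 for Top2a. Neurod1 was at -1.80 without title number 10, and Obfc1 at -0.92 against the Tomato- Isl2 cells alone. Of the 15 lowest, 14 were below 0 and 13 past 2-fold within Tomato+ cells. Of these 15 genes, 0 were lower in all 6 Tomato+ title numbers holding both sides. Each of those title numbers held 1 to 4 Isl2 cells. These comparisons, too, reuse cells by which the genes were ranked.

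A few genes found in more Isl2 cells are named after their values were seen. Mstn, the gene of the growth inhibitor myostatin, ran from 0 to 389.2 CPM with a median of 0 in Slc6a4 cells and from 0 to 881.7 CPM with a median of 57.05 in Isl2 cells. It had at least 5 counts in 25 of 89 Slc6a4 cells and 25 of 37 Isl2 cells (log2 ratio -1.62, and -1.48 within Tomato+ cells). Akap7, which anchors protein kinase A, was at 86.2 CPM (47 of 89 cells) and 269.1 CPM (28 of 37 cells), a log2 ratio of -1.54.

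The lower genes were measured beside markers of other cells. Top2a, the topoisomerase of dividing cells, was at 9.99 CPM (3 of 89 cells) on the Slc6a4 side and 100.9 CPM (10 of 37 cells) on the Isl2 side, and 1 Isl2 cell held 63.4% of that side's counts (log2 ratio -1.29 without title number 18). Of these 10 cells 9 were Tomato-, and within Tomato+ cells the log2 ratio was 0.47, above 0. Neurod1, a factor of amacrine and photoreceptor precursors, was at 7.80 CPM (6 of 89 cells) and 83.5 CPM (13 of 37 cells, 3 Tomato+ and 10 Tomato-). At least 5 counts of Top2a, Mki67, Ccnd1 or Tfap2b, the first 3 genes of dividing cells and the last of amacrine and horizontal precursors, were found in 10 of 89 Slc6a4 cells and 17 of 37 Isl2 cells. Of the 17, 15 were Tomato-.

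Without those cells 79 Slc6a4 cells and 20 Isl2 cells remained, and the log2 ratio of Top2a was 0.02 and that of Neurod1 -0.49. Other calls ended as well: Kcna2 was then at 0.26, Slc17a6 at -0.49, Pcdh9 at 0.71, Htr1b at 0.94, and Onecut2 and Gal at 0.98 each. The other 51 of 59 named genes past 2-fold stayed so, among them Mdga2 (-2.19), Kctd12 (-2.53), Nek6 (-2.22), Mstn (-1.70), Crabp1 (4.70) and Ephb1 (3.86). The 51 include Slc6a4, Isl2 and Pou4f1, which chose the cells. Over the whole lists, the 12 progenitor markers summed to 824.8 CPM on the Slc6a4 side and 991.6 CPM on the Isl2 side. Of the 12, 3 were measured in at least 20% of cells and 1, Top2a, was past 2-fold lower, where 3.29% of all genes were. The 11 amacrine and horizontal markers summed to 21.1 and 65.6 CPM and the 7 photoreceptor markers to 81.2 and 171.3 CPM. Tfap2b was at 0.41 and 35.1 CPM, Crx, a factor of photoreceptors, at 0.04 and 33.5 CPM, and Otx2, which acts before it, at 0.71 and 61.3 CPM. These genes are named beyond the rule and do not stand for their lists. Tfap2b had at least 5 counts in 2 of 37 Isl2 cells. Per cell, the photoreceptor markers summed to a median of 16.9 CPM (up to 603) in Slc6a4 cells. In Isl2 cells the median was 17.2 CPM (up to 3064) for Tomato+ and 3.82 CPM (up to 1958) for Tomato- cells, so single cells weigh heavily.

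**Figure D5:**
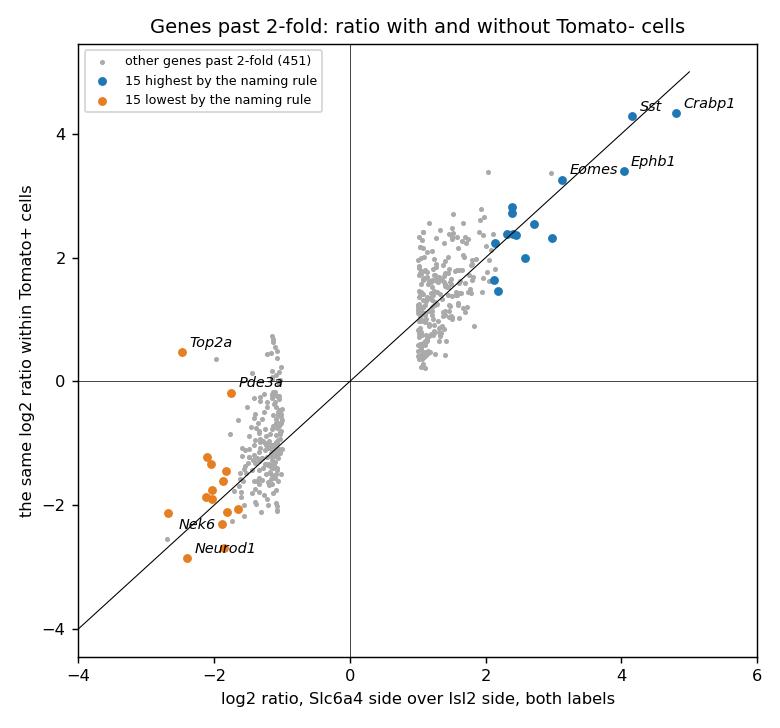
Log2 ratio over all cells of both sides (horizontal) against the same ratio within Tomato+ cells (vertical) for the genes past 2-fold, with the genes of the gate left out; grey points are genes, blue and orange points the 15 highest and 15 lowest by the naming rule, and the line marks equal values. Crabp1 (4.80 and 4.33), Sst and Eomes lie close to the line, while Top2a (-2.47 and 0.47) and Pde3a (-1.74 and -0.19) lie far above it.

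Among transcription factors of RGC subtypes, 19 of 36 were measured in at least 20% of the cells of a side. Past 2-fold higher in Slc6a4 cells were 4, Eomes, Irx1, Lmo2 and Irx3, and 1, Barhl2, was past 2-fold lower, where 4.18% of all genes were higher and 3.29% lower. Each of the 5 was widely measured on the side where it is higher and not on the other. Irx1, an Iroquois homeodomain factor, was at 22.4 CPM (21.3% of cells) on the Slc6a4 side and 0.96 CPM (2.70%) on the Isl2 side, a log2 ratio of 1.56. Irx3 was at 44.4 CPM (49.4%) and 16.5 CPM (13.5%), a ratio of 1.03, which was 2.04 without title number 19 and 0.79 to 0.99 without title number 2, 5, 6, 9, 12, 16, 17 or 20. Irx3 was also within 2-fold with side thresholds of 1 count (0.49), a Pou4f threshold of 20 counts (0.93) and against the Tomato- Isl2 cells alone (0.63). Lmo2, a LIM-only cofactor, was at 75.02 CPM (47.2%) and 20.05 CPM (10.8%), a ratio of 1.50, and 1 Isl2 cell held 84.5% of that side's counts (2.63 without title number 19). Barhl2, a homeodomain factor of RGC and amacrine subtypes, was at 3.42 CPM (4.49%) and 24.4 CPM (32.4%), a ratio of -1.36, and -0.67 within Tomato+ cells and -0.94 with side thresholds of 1 count. Satb1 was at 90.1 and 84.3 CPM and Foxp1 at 118.3 and 61.7 CPM, both within 2-fold.

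Guidance genes outside the ipsilateral and contralateral lists moved singly. Of 19 ephrins and Eph receptors, 7 were measured widely and 2 were past 2-fold higher in Slc6a4 cells, both B-class ephrins, where 4.18% of all genes were. Efnb2, the ligand of Ephb1, was at 32.8 CPM (32.6% of cells) and 3.43 CPM (8.11%), a log2 ratio of 1.67, and Efnb3 at 58.96 CPM (41.6%) and 17.8 CPM (21.6%), a ratio of 1.31. Efnb3 was within 2-fold with side thresholds of 1 count (0.61), within Tomato+ cells (0.80) and with a mitochondrial limit of 10% (0.86). Ephb2, a sister receptor, stayed within 2-fold at 105.4 and 59.4 CPM.

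Robo1, a receptor for Slit proteins, was at 24.2 CPM (21.3% of cells) on the Slc6a4 side and 0.16 CPM (0 of 37 cells) on the Isl2 side, a log2 ratio of 1.75. Its relative Robo2, the main Slit receptor of RGC axons, was at 276.3 and 376.8 CPM (-0.43). Sema5a was past 2-fold higher (29.1 and 1.76 CPM, log2 ratio 1.73) and Sema3e past 2-fold lower (18.1 and 49.7 CPM, -1.09) among 9 widely measured semaphorins and plexins of 19. Of all genes, 4.18% were past 2-fold higher and 3.29% lower. Sema3e was -0.07 against the Tomato- Isl2 cells alone, and -0.55, -0.87 and -0.97 without title number 4, 9 or 3. With side thresholds of 1 count, Sema3e was at -0.71 and Sema5a at 0.54. Of 34 axonal adhesion molecules, 20 were measured widely and 4 were past 2-fold higher in Slc6a4 cells, 0 lower, where 4.18% and 3.29% of all genes were: Chl1, the cadherin Cdh13 (1.90) and the protocadherins Pcdh10 (1.69) and Pcdh9 (1.05). Pcdh9 was 0.23 within Tomato+ cells, and 0.83 to 1.00 without title number 3, 5, 7, 16, 17, 18 or 19. It was at 0.66 with side thresholds of 1 count, and Pcdh10 at 0.76 with a Pou4f threshold of 20 counts.

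Some secreted peptides were past 2-fold higher on the Slc6a4 side. Of 20 neuropeptides and secreted modulators, 7 were measured widely, 4 of these were past 2-fold higher and 0 lower, where 4.18% and 3.29% of all genes were: Sst, Tac1, Lgi2 and Gal. The first 3 were widely measured through the Slc6a4 side alone. The median over all 20 was 0.16. Gal, the gene of the peptide galanin, was widespread on both sides, in 87.6% of Slc6a4 and 83.8% of Isl2 cells. It ran from 0 to 11567 CPM with a median of 1582 in Slc6a4 cells and from 0 to 4874 CPM with a median of 339.5 in Isl2 cells. Its sums were 2293 and 801.6 CPM, a log2 ratio of 1.50, and 1.00 within Tomato+ cells. Lgi2, a secreted protein of synapses, was at 96.4 CPM (46.1%) and 17.2 CPM (16.2%), a ratio of 1.97.

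In the serotonin and monoamine list, 3 of 13 genes were measured widely and 1, the serotonin receptor gene Htr1b, was past 2-fold at 29.7 CPM (22.5% of cells) on the Slc6a4 side and 5.99 CPM (5.41%) on the Isl2 side. Its log2 ratio of 1.31 was 0.65 within Tomato+ cells. Past 2-fold higher were 4.18% of all genes. Slc18a2, the vesicular monoamine transporter, was found in nearly all cells of both sides, 93.3% and 91.9%. It ran from 0 to 1677 CPM with a median of 383.6 in Slc6a4 cells and from 0 to 1854 CPM with a median of 246.9 in Isl2 cells (log2 ratio 0.58). Of the enzymes that make serotonin, Tph1 was at 0 CPM on both sides and Tph2 at 6.80 and 0 CPM.

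Of 30 transmitter receptor genes, 11 were measured widely, 1 was past 2-fold higher and 2 lower, where 4.18% and 3.29% of all genes were. Chrnb3, a nicotinic receptor subunit known from RGC subtypes, was at 2.38 CPM (2 of 89 cells) on the Slc6a4 side and 70.3 CPM (8 of 37 cells) on the Isl2 side, a log2 ratio of -2.70, and 1 Isl2 cell held 60.9% of that side's counts. The other lower gene was Grik2, and the higher one Gabra2, a GABA-A receptor subunit, at 32.8 and 4.07 CPM (1.61, and 0.96 with side thresholds of 1 count). Kcna2 (1.07, and 0.93 to 1.00 without title number 1, 7, 10, 17 or 20, and 0.82 against the Tomato- Isl2 cells alone) was past 2-fold higher among 11 widely measured ion channel genes of 21, and Sv2b (1.91, and 2.50 without title number 12), a vesicle protein, among 17 of 22 synaptic vesicle genes. Past 2-fold higher were 4.18% of all genes, so 1 gene per list does not set these lists apart.

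Genes of axon growth lay within 2-fold, as most genes did. All 19 were measured widely and 0 were past 2-fold either way, with a median of 0.07, as for Map1b at 6137 and 4789 CPM (0.36). Of 12 other genes of the insulin-like growth factor pathway, 6 were measured widely and 0 were past 2-fold, among them the receptor gene Igf1r at 249.7 and 142.1 CPM (0.77). Of all genes, 4.18% were past 2-fold higher and 3.29% lower, so the counts of 0 do not set these lists apart. Genes of retinal position gave 1 widely measured dorsoventral member of 9, Vax2 of ventral retina, at 219.1 and 213.9 CPM (0.03). Of 6 nasotemporal genes 2 were measured widely, Foxd1 of temporal retina at 11 and 4.15 CPM (0.57) and Hmx1 of nasal retina at 41.1 and 64.1 CPM (-0.54).

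Of 18 genes of newly born neurons, 6 were measured widely, with 1 past 2-fold higher and 1 lower, where 4.18% and 3.29% of all genes were. The higher was Onecut2, a cut homeodomain factor, at 624.5 CPM (94.4% of cells) and 242.9 CPM (91.9%), a log2 ratio of 1.33 (0.78 within Tomato+ cells and 0.80 with side thresholds of 1 count), and the lower was Neurod1. Immediate early genes of stress had 5 of 15 measured widely and 0 past 2-fold, among them Dusp1 at 45.6 and 80.03 CPM.

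The genes that set the sides apart were also counted cell by cell. Of Crabp1, Ephb1 and Ubash3b, all 3 had at least 5 counts in 46 of 89 Slc6a4 cells (51.7%) and 1 of 37 Isl2 cells (2.70%), and at most 1 in 9 Slc6a4 cells and 35 Isl2 cells. Among cells with neither gene, 34 (19.8%) had all 3, and 4 of the 9 cells with both genes did. These 3 genes were picked for their ratios, so the counts describe how far they lie in the same cells.

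Within the Slc6a4 side, some genes were found more often in cells that held another. Zic5 was found in 46 of 70 cells with Ephb1 (65.7%) and 2 of 19 without it (10.5%). Igf1 was found in 19 of 30 cells with Eomes (63.3%) and 9 of 59 without it (15.3%). Sst was found in 32 of 74 cells with Crabp1 (43.2%) and 1 of 15 without it (6.67%).

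The reverse was seen for Sst and Eomes, which were found together in 6 cells. Eomes was found in 6 of 33 cells with Sst (18.2%) and 24 of 56 without it (42.9%). Of Sst, Tac1, Eomes and Zic5, the Slc6a4 cells most often had 1 (32 cells) or 2 (32 cells), 8 cells had none of the 4 and 3 cells had all of them. On the Isl2 side 26 of 37 cells had none of these 4 genes.

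Within the Isl2 side, Kctd12 was found in 7 of 8 cells with Chrnb3 and 10 of the other 29, and Igfbp5 in 1 of 25 cells with Mstn (4.00%) and 7 of 12 without it (58.3%). With 37 cells, such counts rest on few cells each, and depth also differs from cell to cell. These pairs were named after all pairs of 10 genes on the Slc6a4 side and 12 on the Isl2 side had been seen.

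The 9 cells with both genes did not sit with either side throughout. Their sums were 124.3 CPM for Ephb1 and 208.04 CPM for Ubash3b, between the sides. They had 68.2 CPM of Zic5, between the sides, 417 CPM of Igf1, above both sides, and 109.4 CPM of Mstn, close to the 124.2 CPM of Isl2 cells. Pou4f1 had at least 5 counts in 9 of the 9 cells and Pou4f2 in 5. Their median total was 302777 counts, near that of the sides, and doublets were not called.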

How the data were processed

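The deposited table holds whole-number counts per gene and cell as the authors left them, with no normalization by them; per the file headers the columns end in "umi", but whether these are molecules or reads is not stated. Per the labels, libraries were SmartSeq2. The submitters' processing notes name Seurat 2.3, R 3.4.4 and mm10; aligner, counter and annotation are not given in the sources used here. A single one (1) of the 801 columns fits no label and was left out. The limit of 20% mitochondrial counts left out 111 cells. Doublets were not called.

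Counts were summed per side and scaled to CPM with exact Poisson intervals, and shares have exact Clopper-Pearson intervals, both 95% and for counting error only. Log2 ratios use a pseudocount of 10 CPM. Past 2-fold means a ratio of at least 1 or at most -1 among genes reaching 5 counts in 20% or more of the cells of either side, met by 271 higher and 213 lower genes. Where these numbers moved by over 1.5 times in either direction of change, they were 471 and 379 (pseudocount of 1 CPM), 610 and 515 (no limit on the share of cells), 471 and 358 (limit of 10%), 665 and 369 (Tomato+ cells), 154 and 107 (side thresholds of 1 count), 465 and 150 (highest cell of each gene left out), 456 and 365 (Tomato- Isl2 cells alone), and 553 and 395 (without cells with Top2a, Mki67, Ccnd1 or Tfap2b). The gate held 374 cells, 126 of them on a side and 172 with neither gene. For 0 of n cells the upper end of the exact interval is the limit given. Ranked names are the 15 highest and 15 lowest ratios among genes with that share on the higher side and shares differing by at least 20 percentage points; predicted genes, pseudogenes, repeated symbols and sex-linked marker genes were passed over. Of each list, the 4 widely measured members with the largest absolute ratios could be named, and all of the ipsilateral and contralateral lists, of which 1 member is not reported here; some other list and marker genes (Sncg, Isl1, Thy1, Satb1, Foxp1, Tph1, Tph2, Tfap2b, Crx and Otx2) are named beyond the rule. Members, lists and rules were chosen with earlier results of these data known. Factors from TMM (edgeR 4.0.16 in R 4.3.3) shifted ratios by 0.032 on the log2 scale. Scripts (Python 3.11.15, pandas 2.3.3) were tested on simulated data.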

Additional observations from a re-analysis of the deposited data

How the results depend on the processing

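Settings were planned to be compared by the number of genes past 2-fold; shares of the genes considered are given here instead, a change made after the data were seen, and a setting is named where either the number or the share moved by over 1.5 times. All these numbers stand under the processing. Of the genes considered, 4.18% were past 2-fold higher and 3.29% lower. These shares were 7.26% and 5.85% with a pseudocount of 1 CPM, 1.23% and 1.04% with no limit on the share of cells, 5.25% and 3.99% with a limit of 10% of cells, 10.4% and 5.75% within Tomato+ cells, and 2.44% and 1.69% with side thresholds of 1 count. The first 3 of these raise the number of genes called (to 471, 610 and 471 higher), while the share falls with no limit because 49585 rows are then counted. Leaving out the highest cell of each gene on each side gave 7.17% higher; this removes 1 of 89 and 1 of 37 cells, so it lowers the Isl2 side more. Leaving out each title number gave 3.97 to 4.97% higher and 3.28 to 3.95% lower. Added after seeing the data were the Tomato- Isl2 cells alone (6.94% and 5.55%) and leaving out cells with at least 5 Top2a, Mki67, Ccnd1 or Tfap2b counts (8.19% and 5.85%), which left 20 Isl2 cells, 70% of them Tomato+. The Tomato+ share of Isl2 cells was 36.4 to 50% with a title number left out. That of Slc6a4 cells was 98.7 to 100% with a title number left out and 100% with thresholds of 20 counts. Of 59 named genes past 2-fold, 58 kept their sign and 38 stayed past 2-fold in all 33 settings. These numbers include Slc6a4, Isl2 and Pou4f1, which chose the cells and so are no measure of how well calls hold. Top2a changed sign, to 0.47 within Tomato+ cells and to 0.019 without the cells with progenitor or amacrine genes. The other 21 lost the call in at least 1 setting, most often with side thresholds of 1 count, where 14 did. Beside the values given with the genes, within 2-fold were Igf1 (0.99 with thresholds of 20 counts), Sema3e (-0.98 without the highest cells), Pcdh9 (0.91 with a mitochondrial limit of 10%), Slc17a6 (-0.85 within Tomato+ cells, -0.96 with thresholds of 1 count) and Kcna2 (0.98 with thresholds of 1 count, 0.93 without title numbers 8 and 10). Title numbers 11 and 13 held no cell of either side. Thinning each cell to 90000 counts gave shares only: Crabp1 was then found in 75.3% of Slc6a4 and 13.5% of Isl2 cells, and Mdga2 in 10.1% and 35.1%. No paired analysis was possible because no result comes from a test: cells of a pool are not replicates, no animal is named, and the row number that titles share between the labels is unexplained. The 37 Isl2 cells, 16 of them Tomato+, limit every value of that side.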
